A study of Mus musculus with 28 samples.

Results

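The genes of DNA replication were followed in livers of phenobarbital-exposed and unexposed mice. The list holds 37 genes of replication licensing, the replication fork and nucleotide supply. It was applied by matching the RefSeq accession of each array probe to a gene symbol, and all 37 genes were found, with 41 of the 55681 distinct probes. Cdc6, Pole, Rfc4 and Uhrf1 had 2 probes each, and for these the probe with the higher mean one-colour signal stood for the gene. The 37 genes are part of 37074 gene names on the array, some of which are accessions with no symbol.

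The livers came from male B6C3F1 mice labelled as 42 days old and had been kept as formalin-fixed, paraffin-embedded blocks for 16 years. The exposed livers were those of 3 mice given 0.05% phenobarbital in their water for about 4 weeks, and the controls were those of 3 mice given plain water. Phenobarbital, a sedative drug, acts on hepatocytes through the constitutive androstane receptor and makes the rodent liver grow. The amplified cDNA of the same 6 mice was hybridized in 4 sets of 1 slide each. The one-colour sets, with 1X or 1.5X of cDNA, had 6 arrays each, and the two-colour sets, again with 1X or 1.5X, had 8 each. At two-colour 1X only 6 entered the results, since on arrays 4 and 8 the description and the channel labels give each exposure opposite dyes. The sets are repeated measurements of the same 6 livers and not new animals, so p-values measure the spread between 3 mice a group.

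Before a cell copies its DNA, the origin recognition complex, Cdc6 and Cdt1 load the ring of Mcm2 to Mcm7 onto each origin. Cdc45 and the GINS complex then turn the ring into the active helicase, with Mcm10 needed for that step, and the polymerases follow with the sliding clamp Pcna and its loader. Many of these genes are transcribed by E2F factors as cells leave G1. In the adult liver nearly all hepatocytes rest outside the cycle and hold few of these transcripts, and phenobarbital is known for bringing a wave of hepatocyte division in the first days of exposure.

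The exposure and the tissue were visible on the arrays, the exposure least at two-colour 1.5X. Cyp2b10, the P450 most closely tied to the constitutive androstane receptor, was well above background on all 6 one-colour arrays of the phenobarbital livers and on none of the controls. The 3 genes chosen to check the exposure, Cyp2b10, Cyp2c55 and Por, all passed as higher in every comparison except two-colour 1.5X. There 1 of the 3 was tested and none passed. The median log2 difference of the 3 was 0.55 there, against 1.74 at two-colour 1X. All 8 hepatocyte markers were well above background on all 12 one-colour arrays. Of these, Alb and Ttr fell by 0.39 and 0.62 on the two-colour 1X arrays (adjusted p = 0.0214 and 0.00788), and none passed in the other comparisons. In the text a level is, for one-colour arrays, the log2 of the processed signal minus the 75th percentile of its array, so a level near 0 belongs to a bright probe and strongly negative levels lie at the array background. For two-colour arrays a level is the log2 signal after normalization, averaged over both dyes of a mouse. An offset of 50 is part of that normalization and makes differences of dim probes smaller. A difference is always phenobarbital minus control in log2 units, with values of mice 1, 2 and 3 given in that order. In bulk liver, fewer cells of a type and less RNA per cell cannot be told apart.

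Detection of the 37 genes was counted in each group of each set. Well above background on every array of a group were, in the one-colour 1X set, 18 members in the phenobarbital livers and 19 in the controls, and on at least 1 array 29 and 26. In the one-colour 1.5X set 13 members were detected on all phenobarbital arrays and 14 on all control arrays, with 27 and 21 on at least 1. In the two-colour 1X set 3 members were above background in all 6 readings of the phenobarbital livers and 6 in all 6 readings of the controls, with 23 and 15 in at least 1. In the two-colour 1.5X set no member was above background in all 8 readings of either group, with 24 and 20 in at least 1. Among all 37074 genes the shares detected on all readings of a group were 46.9% for phenobarbital and 47.8% for controls at one-colour 1X, 31.3% and 34.0% at one-colour 1.5X, 16.5% and 22.1% at two-colour 1X, and 4.15% and 3.15% at two-colour 1.5X.

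**Figure D1:**
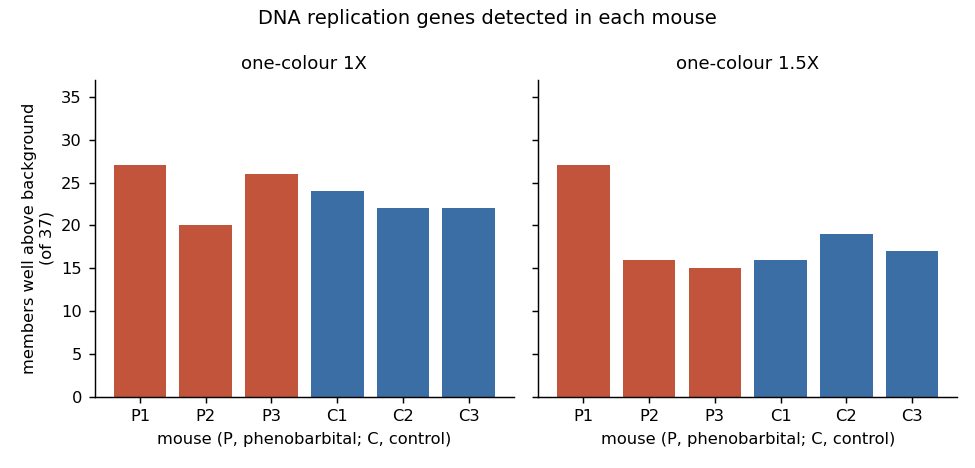
The number of the 37 replication genes well above background in each mouse, by set, with phenobarbital livers left of controls. At one-colour 1.5X phenobarbital mouse 1 stands apart with 27 genes, while the other 5 mice have between 15 and 19.

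By mouse, the one-colour 1X arrays detected 27, 20 and 26 members in the phenobarbital livers and 24, 22 and 22 in the controls. At 1.5X they detected 27, 16 and 15 members in the phenobarbital livers and 16, 19 and 17 in the controls. The first phenobarbital mouse also had the largest share of all probes above background at 1.5X, 38.6%. The share was 30.8% and 28.1% in the other phenobarbital mice and 34.9%, 33.4% and 32.1% in the controls. At one-colour 1X these shares were 47.5%, 45.6% and 47.9% in the phenobarbital livers and 51%, 44.2% and 51.9% in the controls. Of the 37 members, 12 were detected on all 12 one-colour arrays: the helicase genes Mcm2, Mcm3, Mcm4, Mcm6 and Mcm7, the activation factor Mcm10, the clamp loader genes Rfc4 and Rfc5, and Rpa1, Lig1, Tk1 and Dnmt1. Another 7 were detected on none (Cdc6, Cdt1, Gins1, Orc1, Orc6, Pola1 and Pole), and 18 on some. No member spot was saturated, and none was an outlier.

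The members called higher in any comparison, Mcm6 and Mcm7, were both helicase subunits. Mcm6, a subunit of the Mcm2 to Mcm7 ring, was higher in the phenobarbital livers by 2.52-fold over both one-colour inputs and by 2.09-fold on the two-colour 1X arrays, and passed the test in both comparisons. At one-colour 1X its levels were 1.63, 0.94 and 1.35 in the phenobarbital livers, against -0.01, 0.37 and -0.03 in the controls. At one-colour 1.5X they were 0.97, 0.43 and 0.85 in the phenobarbital livers, against -1.0, -0.49 and -0.66 in the controls. Every phenobarbital liver lay above every control in both sets, with phenobarbital mouse 2 the lowest of its group. The difference was 1.20 at 1X (SE 0.24, limma adjusted p = 0.166) and 1.47 at 1.5X (SE 0.22, adjusted p = 0.0641).

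With the arrays of a mouse averaged over both one-colour inputs, Mcm6 rose by 1.33 (SE 0.21, limma adjusted p = 0.0441). It was the 1 member past the threshold of 0.05 among the 13 members tested there, while 0.749% of all 12813 genes passed (0.671% higher). That call is lost without any 1 of the 6 mice, with adjusted p-values between 0.0693 and 0.167. Two-colour 1X arrays gave Mcm6 levels of 9.03, 9.08 and 9.14 in the phenobarbital livers, against 7.77, 8.19 and 8.10 in the controls. The groups were far apart, with a difference of 1.06 (SE 0.11, adjusted p = 0.00213). At two-colour 1.5X its levels were 8.17, 7.87 and 8.07 in the phenobarbital livers, against 7.61, 7.92 and 7.71 in the controls, so the groups overlapped, and the difference of 0.29 was not tested because the probe was above background in 5 of 8 phenobarbital and 4 of 8 control readings.

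Mcm7, another subunit of the ring, was higher with a smaller difference. At one-colour 1X its levels were 0.08, 0.37 and -0.31 in the phenobarbital livers, against -0.83, -0.81 and -0.53 in the controls. At one-colour 1.5X they were -0.51, -0.51 and -0.46 in the phenobarbital livers, against -1.29, -1.41 and -1.14 in the controls. The groups did not overlap in either set, and over both inputs the difference of 0.78 missed the threshold (limma adjusted p = 0.0857). Two-colour 1X arrays gave Mcm7 levels of 8.12, 8.06 and 8.11 in the phenobarbital livers, against 7.57, 7.48 and 7.59 in the controls. There it rose by 0.55 (SE 0.07, adjusted p = 0.00422). At two-colour 1.5X Mcm7 levels were 7.414, 7.438 and 7.410 in the phenobarbital livers, against 7.405, 7.273 and 7.178 in the controls. The groups lay close together without overlap. The difference of 0.13 was not tested, because the probe was above background in 4 of 8 readings of each group.

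**Figure D2:**
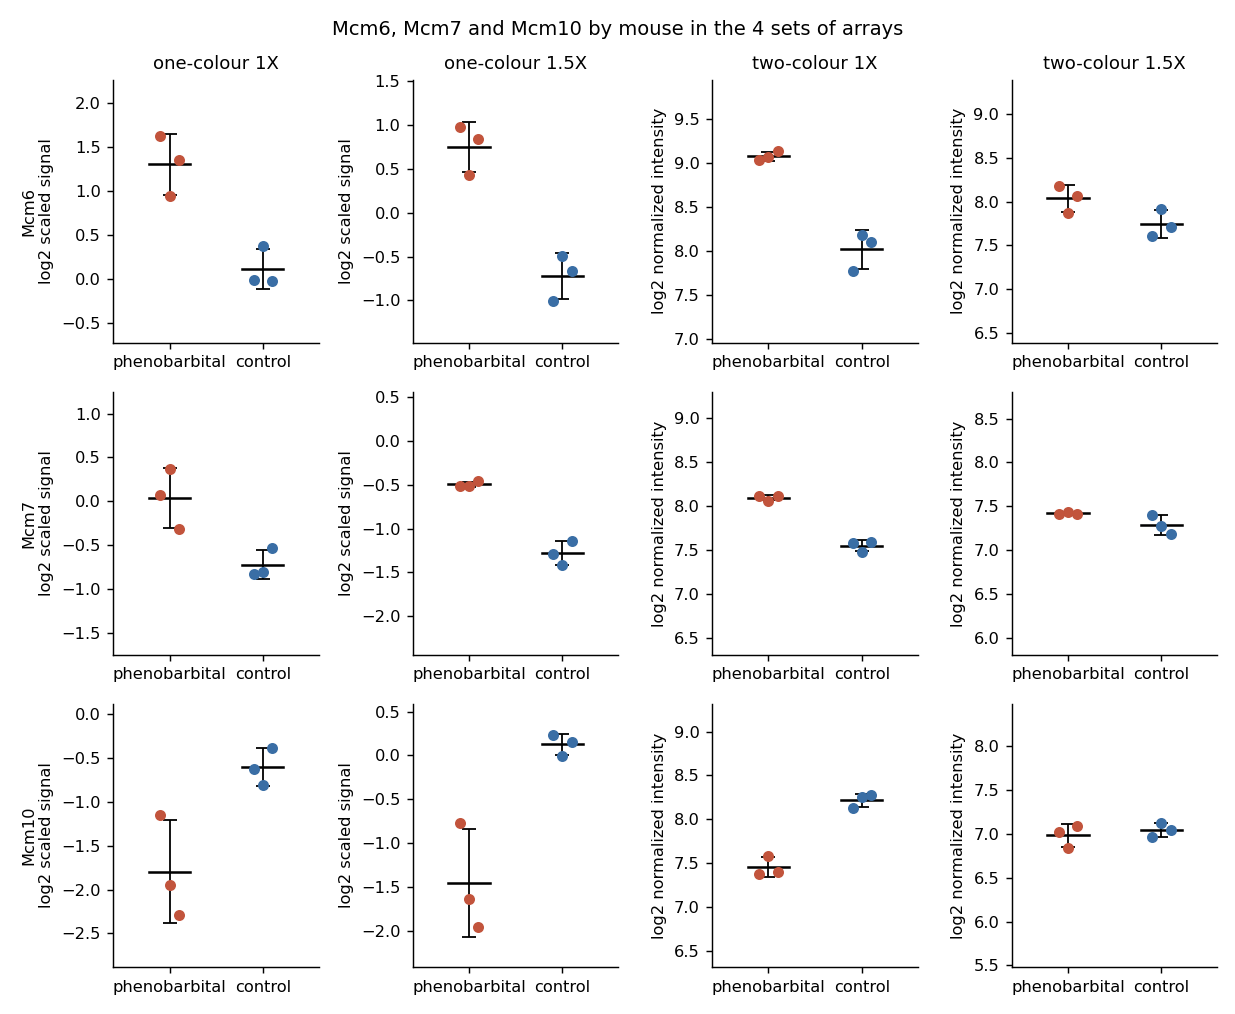
Levels of Mcm6, Mcm7 and Mcm10 in each mouse (dots from left to right are mice 1 to 3, the bar is the mean and the whiskers the SD), with phenobarbital left of control in each set, in log2 units of the set's own scale. Mcm6 and Mcm7 lie higher and Mcm10 lower in the phenobarbital livers on the one-colour and the two-colour 1X arrays, and the groups lie close together at two-colour 1.5X.

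The other members of the ring did not pass in any set. Mcm2 stood at -2.07, -2.52 and -2.12 in the phenobarbital livers at one-colour 1X, against -3.01, -3.41 and -2.88 in the controls. At 1.5X its levels were -2.23, -2.84 and -2.34 in the phenobarbital livers, against -4.40, -3.51 and -2.87 in the controls. The groups did not overlap in either set, and the difference over both inputs was 0.99 (SE 0.25, limma adjusted p = 0.156).

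Mcm4 had levels of -1.98, -2.12 and -3.17 in the phenobarbital livers at one-colour 1X, against -3.12, -3.61 and -2.82 in the controls. Its levels at 1.5X were -2.64, -3.38 and -3.22 in the phenobarbital livers, against -3.76, -3.69 and -3.61 in the controls. Phenobarbital mouse 3 lay within the controls at 1X but above them at 1.5X, and the difference over both inputs was 0.68 (SE 0.24, adjusted p = 0.290).

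Mcm3 had levels of -2.23, -3.23 and -3.18 in the phenobarbital livers at one-colour 1X, against -4.24, -3.05 and -3.79 in the controls. In the 1.5X set they were -1.97, -3.06 and -2.75 in the phenobarbital livers, against -3.23, -2.40 and -3.93 in the controls. Control mouse 2 lay above 2 of the phenobarbital livers in both sets, and the difference over both inputs was 0.70 (SE 0.38, adjusted p = 0.475).

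Of the ring, Mcm5 was detected on the fewest arrays. At one-colour 1X its levels were -3.17, -4.88 and -3.75 in the phenobarbital livers, where 2 of 3 arrays were above background, against -6.05, -5.65 and -5.33 in the controls, where none was. The controls thus give only an upper limit. Phenobarbital mouse 2 was below background as well, so no fold is given for Mcm5 at 1X, and it was not tested. At 1.5X only phenobarbital mouse 1 had Mcm5 above background.

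**Figure D3:**
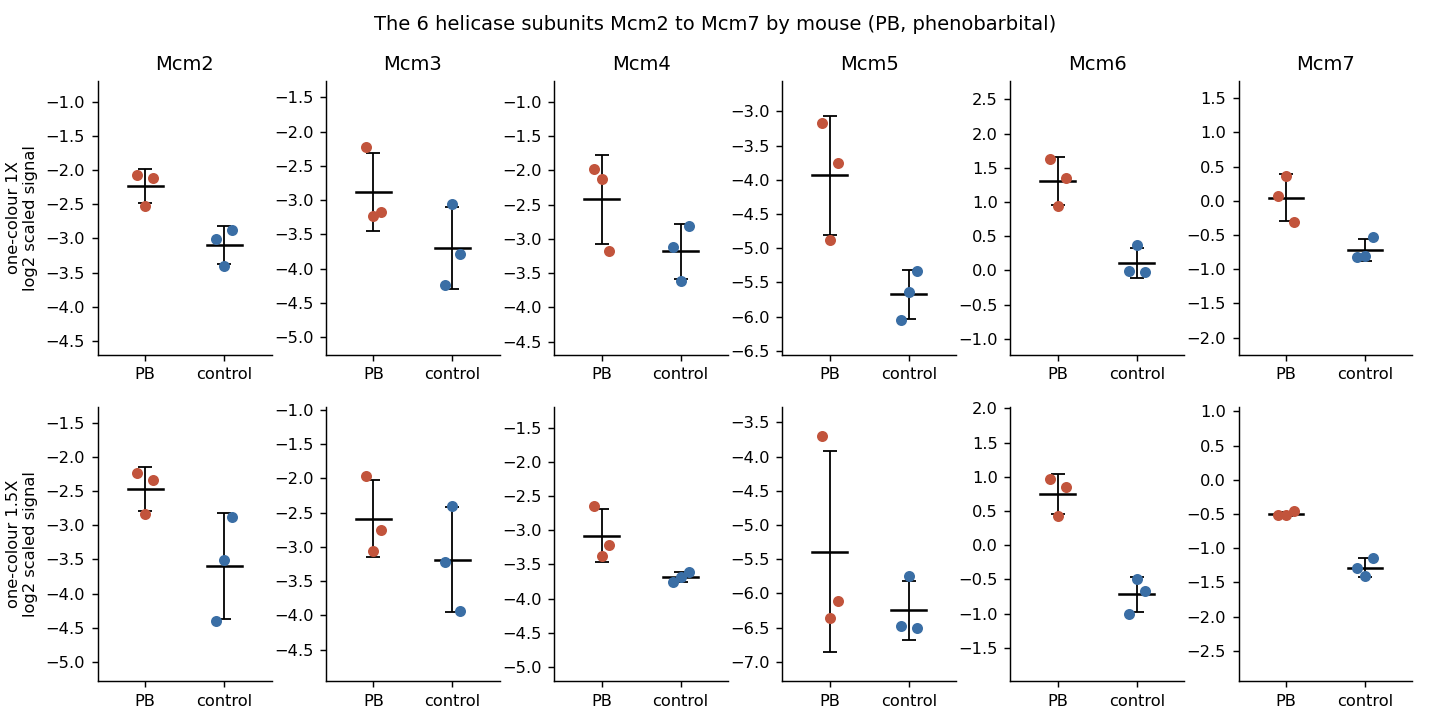
One-colour levels of the 6 helicase subunits Mcm2 to Mcm7 in each mouse, with phenobarbital left of control, in log2 units relative to the 75th percentile of the array. All 6 subunits have a higher mean in the phenobarbital livers at 1X and at 1.5X. Mcm5 was above background on no control array, and the differences of the other subunits lie between 0.60 and 1.47. Mcm3, Mcm4 and Mcm5 overlap between groups in at least 1 set.

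Across the 6 subunits the median difference was 0.84 at one-colour 1X, 0.82 at one-colour 1.5X, 0.88 over both inputs and 0.20 on the two-colour 1X arrays, with all 6 above 0 in each. Over both inputs the medians of the other roles lay between 0.29 (clamp and clamp loader) and 0.93 (maintenance methylation), with 0.85 for polymerases and primase. These medians include members too dim to be tested. Over every gene the medians were 0.10, 0.08, 0.08 and 0.00. At two-colour 1.5X the median of the 6 subunits was 0.03 and 5 were above 0, with a median over every gene of -0.00.

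Mcm10, which binds the loaded helicase and is needed to start unwinding, went the other way. At one-colour 1X its levels were -1.15, -1.95 and -2.29 in the phenobarbital livers, against -0.63, -0.81 and -0.38 in the controls. At one-colour 1.5X they were -0.77, -1.63 and -1.96 in the phenobarbital livers, against 0.23, 0.00 and 0.15 in the controls. Every phenobarbital liver lay below every control, with phenobarbital mouse 1 nearest to them. The difference was -1.19 at 1X (SE 0.31, limma adjusted p = 0.293), -1.58 at 1.5X (SE 0.30, adjusted p = 0.0995) and -1.38 over both inputs (SE 0.29, adjusted p = 0.0991).

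Without phenobarbital mouse 1 the Mcm10 difference was -1.92 at one-colour 1.5X (limma adjusted p = 0.0242) and -1.72 over both inputs (adjusted p = 0.0221), past the threshold. On the two-colour 1X arrays Mcm10 stood at 7.37, 7.58 and 7.40 in the phenobarbital livers, against 8.13, 8.25 and 8.27 in the controls. It fell by 0.77 there (SE 0.09, a ratio of 0.588, adjusted p = 0.00243). At two-colour 1.5X the levels were 7.02, 6.84 and 7.09 in the phenobarbital livers, against 6.97, 7.13 and 7.05 in the controls, and the groups overlapped.

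The partners of Mcm10 in helicase activation were too dim for most tests. Cdc45, which joins the ring to make the active helicase, was above background on 4 of 6 one-colour arrays in each group, and its levels overlapped, with a difference of 0.35 over both inputs. Gins2, a subunit of the GINS complex, was above background on 3 of 6 arrays in each group. At 1.5X it was above background on 1 of 3 arrays of the phenobarbital livers and on none of the controls. Gins1, of the same complex, was above background on no one-colour array.

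The call on the two-colour 1X arrays was thus made for 3 of 6 members tested, Mcm6 and Mcm7 higher and Mcm10 lower. Among the 8261 genes tested there 6.25% were called, 3.34% higher and 2.91% lower. With arrays 4 and 8 added by their channel labels the same 3 members passed, at 1.05, 0.53 and -0.70 for Mcm6, Mcm7 and Mcm10 (limma adjusted p between 0.0225 and 0.0377). With those arrays added by their description the values were 0.72, 0.38 and -0.59, and neither these nor any of the 7211 genes tested passed (adjusted p = 0.324 for each of the 3). On all other two-colour arrays the authors turned the sign of their deposited log ratios where phenobarbital was in Cy3. By that rule their signs on arrays 4 and 8 follow the channel labels and not the description. In the one-colour 1X set none of 21 members tested passed, against 0.161% of all genes. By limma 8 of the 21 had an unadjusted p under 0.05, against 1601 of all 18645 genes tested. Of these 8, Pola2 entered the test only through the phenobarbital livers. In the one-colour 1.5X set none of 14 members passed, against 0.237% of all genes. There 9 of the 14 had an unadjusted p under 0.05, against 1957 of all 13086 genes tested. At two-colour 1.5X no member could be tested, and 0% of the 1665 genes tested were called, with 30 at an unadjusted p under 0.05.

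The promoters of Mcm6, Mcm7 and Mcm10 are shown because these are the 3 members called, in opposite directions. Each is the RefSeq window of 300 bases on GRCm38.p6, from 250 before to 50 after the gene's start, read 5′ to 3′ on the gene's strand. Capitals mark E2F-type words, which are TTTGGCGC, TTTGCCGC, TTTCGCGC or TTTCCCGC on either strand. The Mcm6 window is chr1:128359656-128359955 (minus strand), the Mcm7 window chr5:138171834-138172133 (minus strand) and the Mcm10 window chr2:5012742-5013041 (minus strand).
Mcm6: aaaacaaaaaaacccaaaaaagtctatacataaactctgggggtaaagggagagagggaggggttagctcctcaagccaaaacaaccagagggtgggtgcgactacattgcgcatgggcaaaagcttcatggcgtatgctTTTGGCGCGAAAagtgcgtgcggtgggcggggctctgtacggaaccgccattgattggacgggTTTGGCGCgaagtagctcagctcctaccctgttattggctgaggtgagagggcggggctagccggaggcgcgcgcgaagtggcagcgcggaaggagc
Mcm7: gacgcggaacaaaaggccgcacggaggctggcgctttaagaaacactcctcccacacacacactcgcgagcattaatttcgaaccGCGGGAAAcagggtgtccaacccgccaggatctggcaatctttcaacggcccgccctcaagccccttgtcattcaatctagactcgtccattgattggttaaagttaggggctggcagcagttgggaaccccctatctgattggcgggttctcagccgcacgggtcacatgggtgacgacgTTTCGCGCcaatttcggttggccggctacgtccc
Mcm10: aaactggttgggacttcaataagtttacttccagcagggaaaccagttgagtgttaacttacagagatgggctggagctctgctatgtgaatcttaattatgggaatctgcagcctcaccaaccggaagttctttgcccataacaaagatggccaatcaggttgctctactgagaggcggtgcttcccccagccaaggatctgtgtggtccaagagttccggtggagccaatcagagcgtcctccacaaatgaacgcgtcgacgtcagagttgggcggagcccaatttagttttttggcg

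The Mcm6 window held 3 E2F-type words, of which 2 overlap as a single run on opposite strands. The Mcm7 window held 2, the second of them overlapping a CCAAT box, and a further Mcm7 window at chr5:138171217-138171516 held none. The Mcm10 window held no E2F-type word and 3 CCAAT boxes, with 2 in the Mcm6 window and 3 and 1 in the first and further Mcm7 windows. At the end of the Mcm10 window stands TTTGGCGC without its last letter, and the bases beyond were not searched. The window of Mcm2, which lay higher without passing, also held no E2F-type word, and it held 1 CCAAT box. Of the members, 31 had at least 1 window, 38 windows in all. An E2F-type word was in 13 of the 38 (34.2%), against 744 of all 32851 RefSeq windows of that length (2.26%). CCAAT on either strand was in 24 of the 38 (63.2%), against 12289 of all windows (37.4%). A match describes the letters of the window and is not a measured site, and these letters alone say nothing about binding.

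The licensing factors were not detected on the one-colour arrays. Orc1 and Orc6, subunits of the origin recognition complex, and Cdc6 and Cdt1, which load the helicase with it, were above background on no one-colour array in either group. Their measured levels lay between -7.31 and -4.27 in the phenobarbital livers and between -7.02 and -5.42 in the controls. No fold is given for them, since both groups lie at the background.

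Among the clamp and clamp loader genes the main probe of Rfc4, a subunit of the loader that opens Pcna, was higher without passing. At one-colour 1X its levels were -2.01, -2.23 and -2.15 in the phenobarbital livers, against -3.48, -2.52 and -3.28 in the controls. Its 1.5X levels were -2.29, -2.77 and -2.48 in the phenobarbital livers, against -4.10, -2.81 and -3.93 in the controls. The groups did not overlap, with control mouse 2 close below the phenobarbital livers, and the difference over both inputs was 1.03 (SE 0.29, limma adjusted p = 0.196).

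The second Rfc4 probe did not show that separation. Its difference was 0.45 at one-colour 1X, where it was above background on all 6 arrays, and -0.50 at 1.5X, where it was above background on 1 of 3 arrays in each group. The groups overlapped in both sets.

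Rfc5, another loader subunit, had levels of -1.10, -0.77 and -0.41 in the phenobarbital livers at one-colour 1X, against -0.70, -1.10 and -0.65 in the controls. In the 1.5X set they were -2.90, -1.75 and -2.69 in the phenobarbital livers, against -3.23, -3.41 and -2.63 in the controls. The groups overlapped in both sets, and the difference over both inputs was 0.35 (SE 0.24, limma adjusted p = 0.581).

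Pcna, the sliding clamp and a common marker of replicating cells, was above background on 3 of 6 one-colour arrays of the phenobarbital livers and on 2 of 6 of the controls. At 1.5X its levels were -2.96, -3.58 and -4.22 in the phenobarbital livers, against -4.53, -4.35 and -4.63 in the controls. There was no overlap there, while at 1X control mouse 2 lay above 2 of the phenobarbital livers. At 1X it was above background on 1 of 3 arrays of the phenobarbital livers and on none of the controls, so no fold is given there. Rfc1, Rfc2 and Rfc3, the remaining loader subunits, had differences of -0.27, 0.23 and -0.14 over both inputs, with overlapping groups.

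The polymerase and primase genes were tested for 3 members at one-colour 1X and for none in the other sets. Pola2, which ties the primase to the polymerase that starts each strand, was above background on all 3 phenobarbital arrays and 1 of 3 control arrays at 1X. Its levels there were -3.67, -2.95 and -3.61 in the phenobarbital livers, against -5.21, -3.45 and -6.09 in the controls, so that control mouse 2 overlapped the phenobarbital livers. Prim2, a primase subunit, had the same pattern of detection and overlapping groups. Both entered the test only through the phenobarbital livers, and neither passed.

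Pold1, the catalytic subunit of DNA polymerase delta, differed by 0.52 at 1X (limma adjusted p = 0.841) and its groups overlapped in every set. Prim1, the catalytic primase subunit, was above background on 1 of 3 arrays of the phenobarbital livers and on none of the controls at 1X, and no fold is given. Pola1 and Pole, catalytic subunits of replicative polymerases, were above background on no one-colour array.

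No single-strand binding or Okazaki fragment gene passed the test in any comparison. Rpa1, the large subunit of the protein that coats unwound DNA, had levels of -1.18, -1.79 and -1.40 in the phenobarbital livers at one-colour 1X, against -1.70, -1.80 and -2.0 in the controls. At 1.5X they were -2.02, -2.41 and -2.75 in the phenobarbital livers, against -2.88, -2.49 and -2.59 in the controls. The groups overlapped in both sets, and the difference over both inputs was 0.32 (SE 0.18, limma adjusted p = 0.499). Rpa2 and Rpa3, the smaller subunits, differed by 0.64 and 0.02 over both inputs, with overlap.

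Lig1, the ligase that seals Okazaki fragments, was brighter at 1X than at 1.5X on the one-colour arrays. Its levels at one-colour 1X were 0.36, 0.82 and 0.74 in the phenobarbital livers, against 0.69, 0.68 and 0.96 in the controls. At 1.5X they were -3.77, -3.57 and -3.79 in the phenobarbital livers, against -4.34, -4.11 and -3.18 in the controls. The groups overlapped in both sets, and the difference over both inputs was 0.01 (SE 0.22, limma adjusted p = 0.985). The level of every mouse was lower at 1.5X, by 4.12 to 5.03, a shift whose median lay at percentile 0.602 of all genes. On the two-colour arrays Lig1 was above background in 2 of 6 readings of each group at 1X, and at 1.5X in 6 of 8 phenobarbital and 5 of 8 control readings. Within the one-colour arrays input, slide and scan session cannot be told apart.

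Fen1, the nuclease that trims Okazaki fragments, was tested at one-colour 1.5X. Its levels were -3.17, -3.40 and -3.68 in the phenobarbital livers, against -4.20, -4.36 and -4.23 in the controls. No control reached the phenobarbital livers, and the difference of 0.84 did not pass (SE 0.18, limma adjusted p = 0.131).

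Among the genes of nucleotide supply none passed. Rrm1, the large subunit of ribonucleotide reductase, had levels of -3.61, -3.45 and -2.99 in the phenobarbital livers at one-colour 1X, against -4.49, -3.86 and -3.69 in the controls. Its 1.5X levels were -3.34, -3.82 and -4.26 in the phenobarbital livers, against -4.28, -4.31 and -4.27 in the controls. The groups did not overlap, though phenobarbital mouse 3 lay just above the controls at 1.5X, and the difference over both inputs was 0.57 (SE 0.16, limma adjusted p = 0.192).

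Rrm2, the small subunit whose amount peaks in S phase, was above background on 3 of 6 one-colour arrays of the phenobarbital livers and on none of the controls. Its levels at 1X were -3.50, -6.52 and -3.67 in the phenobarbital livers, against -6.84, -5.73 and -7.07 in the controls. At 1.5X they were -3.79, -6.20 and -4.65 in the phenobarbital livers, against -7.01, -6.57 and -6.67 in the controls. Phenobarbital mice 1 and 3 stood high and mouse 2 stood near the controls, at the background, and no fold is given for the mean.

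Tk1, the thymidine kinase of S phase, had levels of -2.38, -3.71 and -2.25 in the phenobarbital livers at one-colour 1X, against -4.10, -2.55 and -3.66 in the controls. In the 1.5X set they were -2.47, -2.86 and -2.77 in the phenobarbital livers, against -3.71, -3.32 and -3.48 in the controls. The groups overlapped at 1X and did not at 1.5X, where the difference was 0.81 (SE 0.19, limma adjusted p = 0.145). Tyms, the thymidylate synthase, was above background on 1 of 6 one-colour arrays of the phenobarbital livers and on 2 of 6 of the controls.

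Dnmt1, the methyltransferase that copies methylation onto the new strand, had levels of -1.85, -1.59 and -2.30 in the phenobarbital livers at one-colour 1X, against -2.89, -2.40 and -2.35 in the controls. At 1.5X they were -2.50, -1.85 and -2.28 in the phenobarbital livers, against -3.17, -3.11 and -2.61 in the controls. The groups did not overlap, with a difference over both inputs of 0.69 (SE 0.21, limma adjusted p = 0.228). On the two-colour 1X arrays the difference was 0.28 (SE 0.07, adjusted p = 0.0571), and without phenobarbital mouse 3 it was 0.30 and passed (adjusted p = 0.0441). Uhrf1, which brings Dnmt1 to the fork, had levels of -1.60, -2.72 and -2.29 in the phenobarbital livers at one-colour 1X, against -2.74, -3.60 and -2.62 in the controls, which overlapped. At 1.5X Uhrf1 was above background on 1 of 3 arrays of the phenobarbital livers and on none of the controls. Its second probe was above background on 1 of 6 one-colour arrays in each group, and the second probes of Cdc6 and Pole on none.

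**Figure D4:**
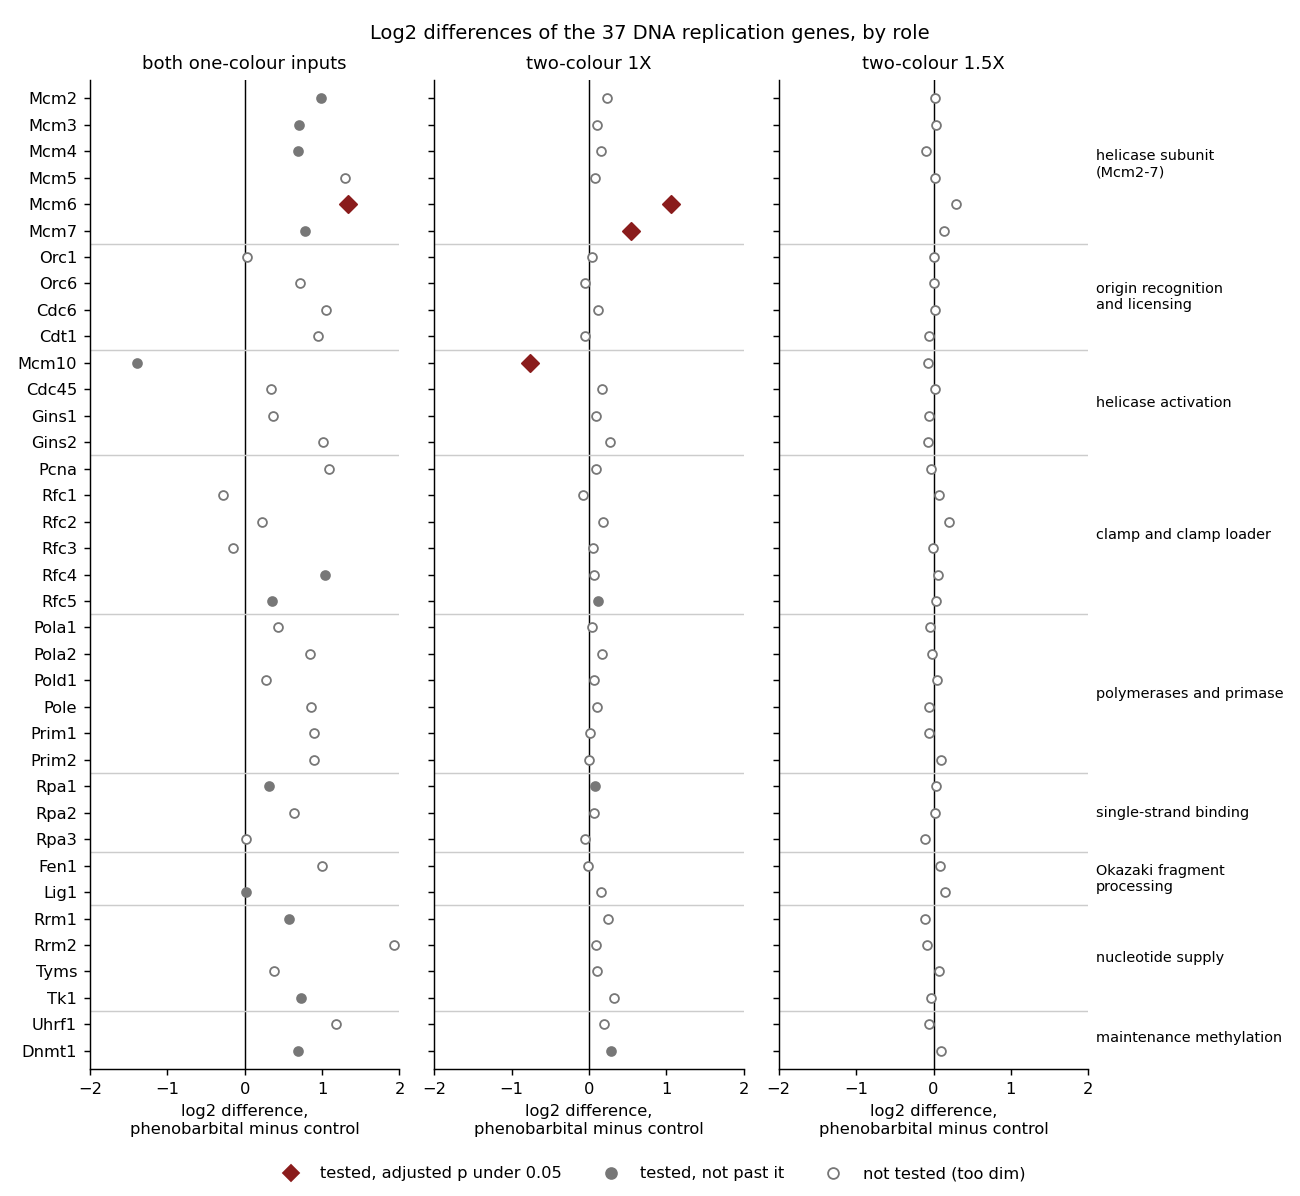
Difference of phenobarbital minus control (log2) for each of the 37 replication genes, grouped by role, on one-colour and two-colour arrays. Most points lie right of 0 on one-colour arrays, Mcm10 lies far left, and two-colour differences are smaller.

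Over the whole list, including members below background, 32 of 37 differences were above 0 at one-colour 1X, against 61.1% of every gene. At one-colour 1.5X 33 of 37 were above 0, against 62.1%, and over both inputs 34 of 37, against 60.3%. On the two-colour arrays 30 of 37 were above 0 at 1X, against 50.5%, and 21 of 37 at 1.5X, against 49.6%. The median of the 37 was 0.66 at one-colour 1X, 0.61 at one-colour 1.5X, 0.70 over both inputs, 0.09 at two-colour 1X and 0.01 at two-colour 1.5X, and the medians over every gene were 0.10, 0.08, 0.08, 0.00 and -0.00. These medians depend on the normalization. After normexp and quantile normalization they were 0.25, 0.29 and 0.27 in the 3 one-colour comparisons, against 0.00 for every gene, and from processed signals without loess 0.31 at two-colour 1X and 0.10 at two-colour 1.5X, against 0.00 and 0.05. Without phenobarbital mouse 1 the median at one-colour 1.5X was 0.41, against 0.27 for every gene.

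Counted by mouse, the phenobarbital livers lay wholly above the controls for 10 members at one-colour 1X, against 5.5% of every gene, and wholly below for 1, against 4.28%. At one-colour 1.5X the counts were 17 above, against 6.61%, and 1 below, against 5%. Over both inputs they were 15 above, against 7.35%, and 1 below, against 4.98%. The member below was Mcm10 in each of these comparisons. On the two-colour 1X arrays 10 lay above, against 8.34%, and 1 below, against 8.12%. At two-colour 1.5X 3 lay above, against 4.1%, and none below, against 4.27%.

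These counts include members whose signal was at the background, such as Cdt1 at 1X and Cdc6 at 1.5X. Among the 12 members detected on all 12 one-colour arrays, 5 lay above and 1 below at 1X, against 7.49% above and 7.15% below of the 10870 genes so detected. At 1.5X 7 of the 12 lay above and 1 below, against 9.35% and 11.1%, and over both inputs 7 above and 1 below, against 9.08% and 9.12%. The median difference of the 12 was 0.71 at 1X, 0.70 at 1.5X and 0.70 over both inputs, and that of the 10870 genes was -0.00, -0.00 and -0.01.

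The 3 phenobarbital livers differed among themselves. Over both one-colour inputs mouse 1 lay above all controls for 28 of the 37 members, mouse 2 for 19 and mouse 3 for 25, against 21.8%, 40.4% and 42.8% of every gene. Mouse 1 was the highest of the 3 for 27 of the 37, mouse 2 for 6 and mouse 3 for 4. Mouse 2 was the lowest of its group for Mcm6, Mcm2, Rfc4 and Rrm2, while Mcm10 was highest in mouse 1.

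The size of the exposure difference was compared between measurements within the mice. Between the inputs of the one-colour arrays none of the 13 members tested differed by limma, and none had an unadjusted p under 0.05, as for all 12895 genes tested none passed after adjustment. The difference of 1.5X minus 1X was -0.40 for Mcm10 (limma adjusted p = 0.855) and 0.27 for Mcm6 (adjusted p = 0.912). Between two-colour and one-colour arrays at 1X none of 6 members passed, with 2 of 8261 genes called. The two-colour difference minus the one-colour difference was -0.13 for Mcm6, -0.22 for Mcm7 and 0.42 for Mcm10 (adjusted p = 0.998 each). With 3 mice a group, these p-values do not show that the differences were equal.

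The other genes of the pathway held 1 call. Of 44 further replication genes, 18 were tested over both one-colour inputs and none passed, with a median difference of 0.05 over those tested and 0.13 over all 44. Chtf18, a subunit of an alternative clamp loader, and Gmnn, the inhibitor of Cdt1, were too dim to be tested. Chtf18 was above background on 4 of 6 one-colour arrays of the phenobarbital livers and on 1 of 6 of the controls, and Gmnn on 2 of 6 phenobarbital arrays and on none of the controls. Of 20 genes of E2F and the pocket proteins, 10 were tested over both inputs and none passed, with a median of 0.30. Tfdp1, the dimerization partner of E2F proteins, rose by 0.35 on the two-colour 1X arrays (limma adjusted p = 0.0454), the 1 call among 3 tested there.

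The mitosis genes held several calls in the same livers. Of 22, 6 were tested over both one-colour inputs. Cdc20, Ube2c and Birc5 rose, by 2.76, 2.41 and 1.82 (limma adjusted p = 0.0197, 0.0171 and 0.0358). Above background on all 12 one-colour arrays were 3 of the 22, so some of the 6 entered the test through 1 group only. Another 10 were above background on no one-colour array. The median difference was 2.39 over the 6 tested and 0.67 over all 22, against 0.70 over all 37 replication genes. Cdc20 and Ube2c act with the anaphase-promoting complex and Birc5 is a subunit of the chromosomal passenger complex. On the two-colour 1X arrays 4 of 4 tested rose, namely Birc5, Ccnb1, Cdc20 and Mki67, with differences between 0.77 and 1.15. There too a dim gene could enter the test through the phenobarbital livers alone, so the direction of those tested is partly set by the filter. Over all 22 the median on those arrays was 0.13, with 18 above 0. Whether mitosis genes and replication genes differed in their response was not tested.

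Markers of other cells were measured beside the members. Mpeg1, a macrophage gene, rose by 0.95 over both one-colour inputs (limma adjusted p = 0.0455) and was the 1 call among 8 tested Kupffer cell and macrophage markers. The summed linear signal of the 11 macrophage markers with a probe was taken relative to the 75th percentile of the array. It ranged from 5.86 to 8.00 in the phenobarbital livers and from 4.84 to 5.84 in the controls. Their median difference was 0.13, against 0.08 for every gene, with 8 of the 11 above 0. Timd4 was above background on no one-colour array. The summed signal of 11 T, B and NK cell markers ranged from 1.14 to 1.76 in the phenobarbital livers and from 0.777 to 1.21 in the controls. Of these markers 2 were tested and none passed. Cd3g, Cd8a, Klrb1c and Ms4a1 were above background on no one-colour array. The summed signal of 7 neutrophil markers ranged from 0.206 to 0.737 in the phenobarbital livers and from 0.120 to 0.172 in the controls. Of the 7, 1 was tested and did not pass, and none was above background on all 12 one-colour arrays. Mpo and S100a8 were above background on no one-colour array. No marker of red cells (4 tested of 7), endothelium (5 of 7), stellate cells and fibroblasts (4 of 7) or cholangiocytes (2 of 5) passed over both inputs. None of the 7 endothelium and none of the 8 hepatocyte markers had a difference above 0 there, with medians of -0.24 and -0.15. The summed endothelium signal ranged from 2.63 to 3.34 in the phenobarbital livers and from 3.15 to 3.65 in the controls. All 6 pancreas genes were lower in the phenobarbital livers, with a median difference of -1.01 and no call, and their summed signal ranged from 52.8 to 301 in the phenobarbital livers and from 86.6 to 333 in the controls. The part of these cells in the replication results was not tested.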

How the data were processed

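RNA from archived livers of 6 mice was measured on 28 Agilent arrays, and, per the file headers, the authors read the scans with Feature Extraction (Agilent, version 11.0.1.1). Their deposited files hold an intensity per spot (processed and median signals), flags for spots well above background, and, for two-colour arrays, log10 ratios of Cy5 over Cy3. The series matrix of the authors equals the processed signal for one-colour arrays and holds the log10 ratio for two-colour arrays, turned in sign on 8 of them. Array data have no count depth, so precision rests on 3 mice per group and on signal over background. Negative controls (308 spots) had median signals of 54 to 82.75 at one-colour 1X and 216 to 277 at 1.5X.

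For one-colour arrays the log2 processed signal was scaled by subtracting the 75th percentile of the array, taken over the probes detected (well above background) throughout the set. For two-colour arrays the values came from median signals with normexp (offset 50), loess (span 0.3) and Aquantile normalization, averaged over the dyes of a mouse. On arrays 3, 5, 6 and 7 of the two-colour 1X set the source names number the mice differently from the description, which was followed. Gene names came from RefSeq accessions (GRCm38.p6 table, 27235 of 55681 probes named). Genes entered a test where at least 1 group had the probe detected in all its readings. Tests used limma 3.58.1 (lmFit, eBayes) in R 4.3.3 on all genes tested, with Benjamini-Hochberg adjustment and a threshold of 0.05. Deviations of same-numbered phenobarbital and control mice correlated between -0.28 and 0.38, not above 0.1 in every pair, and the numbers were not used as pairs. The fits were tested on simulated data with 200 changed genes. Figures used matplotlib 3.10.9.

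The members and lists, as well as the alternatives and the rule on which genes to name, were chosen with earlier results of these data known. By that rule, members called in any comparison, or detected on all arrays of at least 1 group in both one-colour sets, are given by mouse, and the others by range or detection. Fen1, Mcm5, Pcna, Pola2, Rrm2 and Uhrf1 fall outside it and were chosen for values by mouse after those were seen. The lists were further replication genes, E2F and pocket protein regulators, mitosis genes, markers of 9 cell or tissue types and 3 genes to check the exposure.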

Additional observations from a re-analysis of the deposited data

How the results depend on the processing

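Fits under other settings changed the calls on members as follows, and the causes were not tested. At one-colour 1X no member passed under any of the 15 alternatives. At one-colour 1.5X leaving out a mouse gave 0 to 1 calls, the well-above-background rule on every array gave 1 (Mcm6, limma adjusted p = 0.0384) and normexp with quantile normalization gave 2 (Mcm10 and Mcm6). Over both inputs leaving out a mouse gave 0 to 1 calls, where the 1 call, without phenobarbital mouse 1, was Mcm10 in place of Mcm6. With no filter on dim probes, with the mouse number as a replicate block and with no scaling there were 0 calls, with Mcm6 adjusted p-values of 0.138, 0.115 and 0.179. Deviations of same-numbered mice correlated between -0.28 and 0.38, which with 3 mice a group does not decide whether they were pairs. On the two-colour 1X arrays leaving out a mouse gave 3 to 4 calls, adding arrays 4 and 8 by their description 0, and Cy3 alone 2 (Mcm7 adjusted p = 0.0618). Calls gained there were Tk1 with no filter on dim probes (adjusted p = 0.0479) and Dnmt1 from processed signals without loess (0.0148) and without phenobarbital mouse 3 (0.0441). Mouse numbers from the source names kept Mcm6, Mcm7 and Mcm10 (adjusted p between 0.0260 and 0.0317) but lowered calls over all genes to 100, against 516.

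Calls over all genes ranged from 3 to 34 at one-colour 1X (30 as reported), 4 to 158 at 1.5X (31), 16 to 146 over both inputs (96), 0 to 688 at two-colour 1X (516) and 0 to 15 at two-colour 1.5X (0). Without scaling the median of every gene moved to -0.19 at one-colour 1X and to -0.13 over both inputs, while the members' median stayed 0.56 and 0.62 above it. Counted on at least 1 reading, detected members were 29 (phenobarbital, one-colour 1X), 27 (phenobarbital, 1.5X), 23 and 15 (phenobarbital and control, two-colour 1X) and 24 and 20 (two-colour 1.5X).

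The sign turned for the following differences, none of which passed the threshold. Without scaling Rfc5 at one-colour 1X was -0.24 and Lig1 over both inputs -0.20, and Lig1 was -0.016 with normexp and quantile normalization. Rfc5 at two-colour 1X was -0.12 in Cy3 alone, and Rpa1 was -0.0020 with arrays 4 and 8 by their description. Leaving out a mouse, Lig1 ranged from -0.23 to 0.0042 at one-colour 1X, from -0.063 to 0.51 at 1.5X and from -0.12 to 0.23 over both inputs, and Rfc5 from -0.12 to 0.23 at 1X. The difference between inputs ranged from -0.17 to 0.19 for Mcm7, and that between formats from -0.32 to 0.051 for Mcm6.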
